A study of Mus musculus with 34 samples.

Results

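The 6 genes of the egg coat and egg surface, Zp1, Zp2, Zp3, Astl, Izumo1r and Cd9, were followed in single mouse embryos. They are 6 of the 49686 gene symbols in the zygote and late 2-cell tables and of the 51734 in the blastocyst table, and each had 1 row in every table. They were picked by name, and Zp3 was known from these same data to be lower in R442Q zygotes, so the zygote comparison is given as a description with no test. Early zygotes had been injected with mRNA encoding CHK1, a kinase that delays mitosis when DNA is damaged, either as the wild-type form (WT) or as the mutant R442Q. The 34 embryos, 1 per library, comprised zygotes (5 WT, 6 R442Q), late 2-cell embryos (4 WT, 5 R442Q) and blastocysts (7 of each). Zygotes and late 2-cell embryos had no inhibitor, whereas all 14 blastocysts had grown in medium with a Chk1 inhibitor at 30 nM. Every group had thus been injected with CHK1 mRNA, and no uninjected group was analysed here. Per the labels the zona pellucida was taken off before lysis, and the cDNA was made by SMART-seq2, a full-length method that starts from polyadenylated RNA. No label says whether embryos of a group came from different mothers or injection sessions, so the p-values measure only the spread between these embryos.

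The zona pellucida is the glycoprotein coat that the growing oocyte lays around itself. In the mouse it is built from ZP1, ZP2 and ZP3: ZP2 and ZP3 form its filaments and ZP1 links them. At fertilization the cortical granules release ovastacin, the protease encoded by Astl, which cleaves ZP2 and stops further sperm from binding. On the egg membrane, JUNO, the product of Izumo1r, binds IZUMO1 on the sperm, and the tetraspanin CD9 organises the microvilli where the membranes fuse. The zona transcripts and Izumo1r are made in the oocyte, and maternal RNA of this kind is degraded as the embryo starts its own transcription, while CD9 is also found on many other cell types.

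On GRCm38, in GENCODE M21, Zp1 lies on the minus strand at chr19:10914287-10920632, Zp2 on the minus strand at chr7:120126772-120145291 and Zp3 on the plus strand at chr5:135980099-135988624. Astl lies on the plus strand at chr2:127338639-127357651, Izumo1r on the minus strand at chr9:14885814-14903949 and Cd9 on the minus strand at chr6:125460266-125494791. The annotated coding transcript of Zp3 has a 3' UTR of 13 bases, and those of Zp1 and Zp2 with the longest coding sequence have 34 and 49, against a median of 729 bases over 21747 protein-coding genes. A 3' UTR this short or shorter was found in 5.77%, 6.97% and 7.97% of these genes for Zp3, Zp1 and Zp2, respectively. A second coding transcript has a 3' UTR of 193 bases in Zp1 and of 173 bases in Zp2. By the same choice of transcript the 3' UTR was 333 bases in Izumo1r, 395 in Cd9 and 876 in Astl.

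The sequences directly upstream of the transcription start are shown for the 4 genes with an entry in the RefSeq promoter table (GRCm38.p6). These genes took different courses from zygote to late 2-cell embryo, and a link between sequence and course was not tested. Each sequence runs 5' to 3' on the gene's own strand and stops before the first base of any GENCODE transcript. Capitals mark CANNTG, the E-box, a motif that basic helix-loop-helix factors bind, among them FIGLA, the known activator of the zona genes. The stretches are chr5:135979855-135980098 for Zp3, chr2:127338389-127338638 for the first start of Astl, chr9:14903950-14904017 for Izumo1r and chr6:125494792-125495010 for Cd9.
Zp3: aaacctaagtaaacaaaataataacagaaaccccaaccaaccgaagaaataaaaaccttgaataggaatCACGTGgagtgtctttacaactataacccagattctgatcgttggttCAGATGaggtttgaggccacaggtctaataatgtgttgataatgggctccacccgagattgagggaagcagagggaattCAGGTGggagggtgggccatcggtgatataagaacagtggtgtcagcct
Astl: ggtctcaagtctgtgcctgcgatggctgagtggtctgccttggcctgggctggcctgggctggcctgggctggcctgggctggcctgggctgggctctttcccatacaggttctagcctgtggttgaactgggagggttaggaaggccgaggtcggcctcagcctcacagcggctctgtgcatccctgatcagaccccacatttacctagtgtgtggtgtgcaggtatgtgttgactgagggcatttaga
Izumo1r: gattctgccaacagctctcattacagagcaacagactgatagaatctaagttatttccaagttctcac
Cd9: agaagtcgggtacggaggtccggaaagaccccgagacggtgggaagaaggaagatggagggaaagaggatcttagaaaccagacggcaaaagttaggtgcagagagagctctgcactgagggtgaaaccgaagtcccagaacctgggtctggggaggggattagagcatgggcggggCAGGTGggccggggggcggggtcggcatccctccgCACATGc
The Zp3 stretch holds 3 E-boxes and that of Cd9 holds 2, and the printed parts of Astl and Izumo1r hold 0. CANNTG reads the same on both strands. Over the full windows, which run past the start into the transcript, Zp3 has 4, Cd9 has 3, Izumo1r has 1 and this Astl start has 0, a second Astl window at chr2:127341386-127341685 has 3, and 72.3% of 32851 promoter windows of that length hold at least 1. TATAA, searched on both strands, occurs 2 times in the Zp3 window and in 24.9% of all windows. GGGCGG, the GC box, searched on both strands, occurs 2 times in the Cd9 window and in 35.7% of all windows. The Cd9 window also has 18 CpG dinucleotides, against 7 for Zp3 and a median of 7. A match to these letters describes the window and shows no binding.

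The whole set of libraries gave the following frame. Estimated counts summed to between 7183632 and 11296522 per zygote and between 5727956 and 8916343 per late 2-cell embryo; for blastocysts the depth is unknown, since the blastocyst table holds only FPKM, fragments scaled to transcript length and library size. CPM, counts scaled to the library total, compares 1 gene between embryos, FPKM also compares genes, and both are shares of a library, so less of 1 transcript and more of the others cannot be told apart. Chek1, the gene whose mRNA was injected, counted here without separating injected from own transcripts, stood at 6236 ± 1832 CPM in WT and 6587 ± 582 CPM in R442Q zygotes (SD) and at 492 ± 126 and 473 ± 210 CPM in WT and R442Q late 2-cell embryos. In FPKM it was 4123 to 9079 in zygotes and 7.05 to 38.3 in blastocysts. The summed FPKM of 7 oocyte and zygote markers was 1905 to 4031 in zygotes, 186 to 758 in late 2-cell embryos and 0 to 4.06 in blastocysts. The sum of 7 trophectoderm markers was 42.6 to 85.0, 85.8 to 403 and 1310 to 25129 at the same stages, and that of 8 inner cell mass markers was 63.2 to 195, 32.2 to 72.5 and 96.1 to 615. For follicle cells, which can cling to an egg, 15 cumulus markers summed to between 15.3 and 24.8 in zygotes, and of their defining genes Amh was listed at 0 while Ptx3, Has2 and Tnfaip6 reached at most 0.05, 0.72 and 1.83. The cumulus sum was 35.2 to 109 in late 2-cell embryos and 0 to 72.1 in blastocysts. At these stages Has2 was at most 0.12, Amh at most 0.55, Ptx3 at most 1.34 and Tnfaip6 at most 19.7. Of the 8 genes of this list that passed the count filter, Cyp19a1 had the highest mean in zygotes (33.1 CPM) and Amhr2 in late 2-cell embryos (52.6 CPM). The 6 sperm markers summed to at most 22.4 in any embryo. A single library stood apart from its label's stage: in WT late 2-cell embryo 2 the 7 markers of the 2-cell stage summed to 109 FPKM, inside the zygote range of 78.7 to 209, whereas the other 8 late 2-cell embryos had 386 to 2503; its oocyte markers, at 250, were as low as in the others.

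**Figure D1:**
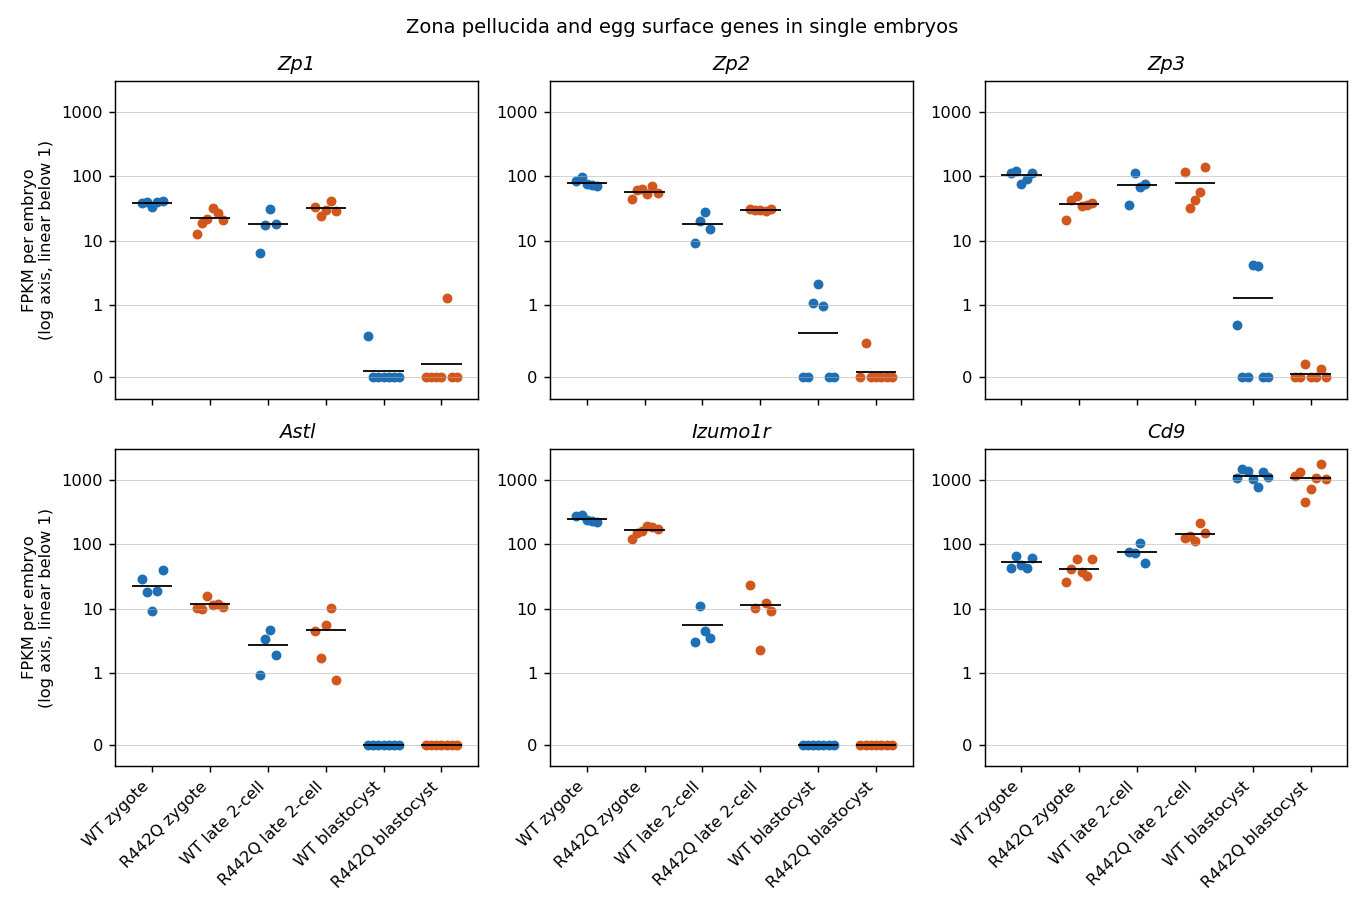
FPKM of each gene in every embryo (points; log axis above 1, linear below) by stage and injected mRNA, with the group mean as a line. Izumo1r and Astl are listed at 0 in all 14 blastocysts, while Cd9 reaches 441.6 to 1738 there.

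In WT zygotes Izumo1r was the most abundant of the 6 per transcript length, at 223 to 283 FPKM. Zp3 followed at 74.8 to 123 FPKM and Zp2 at 71.4 to 96.2, and the 2 ranges overlapped. Cd9 at 42.9 to 64.9 and Zp1 at 33.0 to 41.9 came next without overlap, and Astl at 9.25 to 39.2 overlapped Zp1. The message of the sperm receptor was thus above that of every coat protein, and the filament proteins were above the cross-linker. In R442Q zygotes the order was Izumo1r at 120 to 193 FPKM, Zp2 at 43.9 to 70.9, Cd9 at 25.8 to 58.2, Zp3 at 21.2 to 50.0, Zp1 at 12.7 to 32.2 and Astl at 9.85 to 15.9. In these embryos the ranges of neighbours overlapped from Zp2 downward.

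The zygote comparison that led to the choice of these genes ran as follows. Zp3, a filament protein of the coat, had 128, 139, 86.1, 104 and 131 CPM in the 5 WT zygotes. In R442Q zygotes it had 24.8 to 57.4 CPM with a median of 43.2. Every R442Q zygote lay below every WT zygote, and the difference was -1.35 ± 0.17 on the log2 scale (R442Q minus WT, SE). Zp1, the cross-linker, had 70.2, 73.0, 51.0, 72.7 and 75.8 CPM in WT and 23.0 to 50.6 in R442Q zygotes, a log2 difference of -0.71 ± 0.18. The highest R442Q zygote and WT zygote 3 nearly touched, at 50.6 and 51.0 CPM. Izumo1r had 286, 296, 266, 242 and 241 CPM in WT and 136 to 206 in R442Q zygotes, a log2 difference of -0.47 ± 0.11, again with no overlap. The groups overlapped for Zp2 (140 to 187 against 92.2 to 143 CPM, -0.31 ± 0.12), Astl (19.3 to 75.4 against 18.9 to 33.6 CPM, -0.75 ± 0.26) and Cd9 (44.7 to 66.9 against 26.8 to 60.9 CPM, -0.19 ± 0.19). Without WT zygote 5 the Astl difference was -0.44, and without R442Q zygote 1 that of Cd9 was -0.093; on the deposited FPKM, as log2(FPKM + 1), Cd9 was at -0.34 and Zp2 at -0.46. All R442Q zygotes thus lay below all WT zygotes for 3 of the 6 genes, and for 6.84% of the 12420 genes measured in zygotes; since the genes were chosen on this contrast, nothing is read from that. The summed oocyte and zygote markers ran from 2551 to 4031 FPKM in WT and from 1905 to 3511 in R442Q zygotes, and their part in these differences was not tested.

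From zygote to late 2-cell embryo, with WT and R442Q weighted equally, 3 of the 6 genes fell, 1 rose and 2 did not pass the threshold (edgeR quasi-likelihood test, Benjamini-Hochberg adjusted p under 0.05). Across all 16199 genes tested, 75.1% passed it, 33.3% as lower and 41.8% as higher, and the median change was 0.28 (log2). Stage and deposited table cannot be told apart in this comparison.

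Izumo1r changed most among the 6. It went from 136 to 296 CPM in the 11 zygotes to 3.56, 8.71, 4.94 and 3.91 CPM in the WT and 24.8, 8.55, 2.47, 12.1 and 7.29 CPM in the R442Q late 2-cell embryos. Every late 2-cell embryo lay far below every zygote, and the log2 change was -4.93 ± 0.32 (SE, adjusted p = 2.4e-12). A fall this deep was reached by 1.4% of the genes tested. The lowest of these values stayed above the 0.34 to 0.52 CPM that 3 counts are worth in these libraries, a floor that covers counting error only.

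Astl, whose protease acts at fertilization itself, fell by 2.22 ± 0.38 on the log2 scale (edgeR adjusted p = 1.5e-05). It had 18.9 to 75.4 CPM in zygotes. At the late 2-cell stage it had 2.10, 7.26, 10.2 and 3.74 CPM in WT and 9.32, 3.67, 11.7, 21.8 and 1.91 CPM in R442Q embryos. R442Q embryo 4 alone reached into the zygote range.

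Of the 3 coat genes 1 passed the test. Zp2, the substrate of ovastacin, fell by 1.61 ± 0.17 (log2, edgeR adjusted p = 8.8e-09), from 92.2 to 187 CPM in zygotes to 20.1 to 65.8 CPM in late 2-cell embryos, with no overlap. Late 2-cell embryos lay wholly below zygotes for Zp2 and Izumo1r, 2 of the 6, and for 14.3% of all genes, and wholly above them for 0 of the 6 and 17.1% of all genes. Zp1 had 23.0 to 75.8 CPM in zygotes and 12.1 to 68.8 CPM later, and its log2 change of -0.42 ± 0.22 did not pass (adjusted p = 0.0833). Zp3 had 24.8 to 139 CPM in zygotes and 37.0 to 160 CPM later, and its change of 0.19 ± 0.25 did not pass either (adjusted p = 0.503). The 2 genotypes gave values of opposite sign for these 2 genes: in WT embryos alone the log2 changes were -1.22 ± 0.35 for Zp1 and -0.61 ± 0.30 for Zp3, and in R442Q embryos alone 0.33 ± 0.27 and 0.97 ± 0.38. Of these, Zp1 in WT (edgeR adjusted p = 0.00676) and Zp3 in R442Q embryos (edgeR adjusted p = 0.0348) passed. These values share the zygote contrast that singled out Zp3 and are given as a description, from which nothing is read. Leaving out the WT late 2-cell embryo 2, with its low 2-cell markers, gave -0.036 ± 0.27 for Zp3 (edgeR adjusted p = 0.907), -0.51 ± 0.24 for Zp1 and -1.73 ± 0.19 for Zp2, and 4 of the 6 genes were called as before.

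Cd9 was the 1 gene of the 6 that rose, by 1.02 ± 0.19 (log2, edgeR adjusted p = 3.8e-05). It had 26.8 to 66.9 CPM in zygotes, then 79.6, 77.7, 114 and 48.1 CPM in WT and 125, 136, 101, 211 and 151 CPM in R442Q late 2-cell embryos. All late 2-cell embryos except WT embryo 4 exceeded every zygote. In WT embryos alone the rise was 0.38 ± 0.25 and did not pass (adjusted p = 0.181), and in R442Q embryos alone it was 1.62 ± 0.27. The 2 genes on the opposite strand, Gm28809 and Gm26728, overlap Cd9 and had at most 3.94 and 9.25 FPKM in late 2-cell embryos, and whether the counting used strand is not given in the sources used here.

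**Figure D2:**
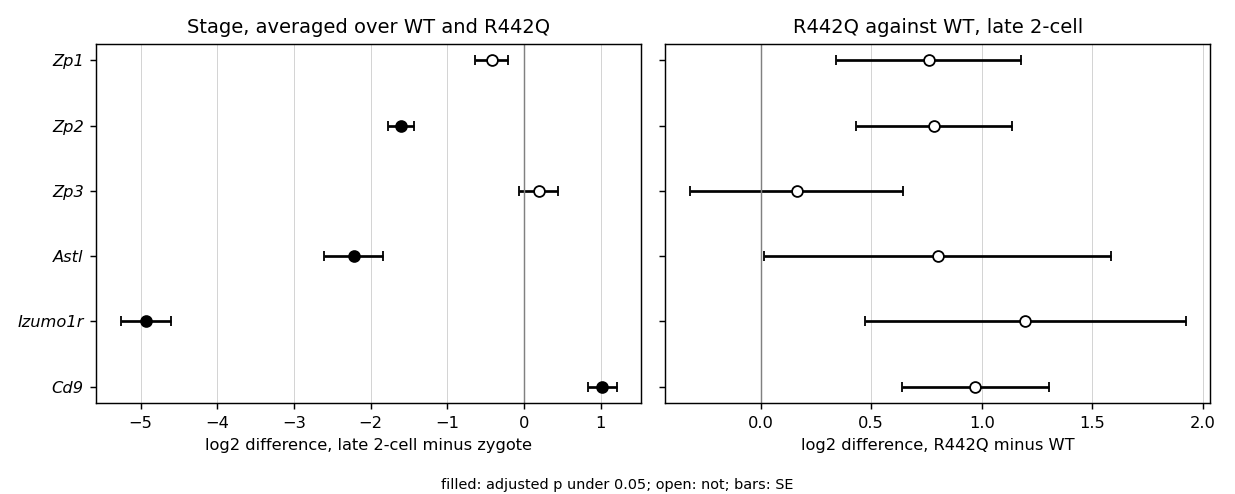
Log2 difference of each gene with its SE, from zygote to late 2-cell embryo (left) and between R442Q and WT late 2-cell embryos (right); filled points have an adjusted p under 0.05. Izumo1r, Astl and Zp2 fell and Cd9 rose with stage, and no gene passed between genotypes.

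The balance of the coat transcripts was also read within single embryos, as ratios of FPKM, which do not depend on the library total. The ratio of Zp1 to Zp2 FPKM was 0.423 to 0.586 in WT zygotes and 0.290 to 0.600 in R442Q zygotes. In late 2-cell embryos it was 0.694 to 1.22 in WT and 0.824 to 1.42 in R442Q. Every late 2-cell embryo thus had more Zp1 relative to Zp2 than every zygote. Zp2 itself fell by 1.61 on the log2 scale with no overlap. The share of all genes whose ratio to Zp2 separates the stages in this way was not computed. The ratio of Zp3 to Zp2 was 0.991 to 1.59 in WT zygotes, 0.483 to 0.777 in R442Q zygotes, 2.42 to 5.52 in WT and 1.08 to 4.51 in R442Q late 2-cell embryos. The values of Zp3 in R442Q zygotes are those by which the genes were chosen, so the Zp3 ratios are a description only. The R442Q late 2-cell embryos split: embryos 1 and 5 had 3.84 and 4.51, and the other 3 had 1.08, 1.42 and 1.97. Izumo1r went from 2.45 to 3.59 times the Zp2 level in zygotes to 0.0743 to 0.759 times in late 2-cell embryos.

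**Figure D3:**
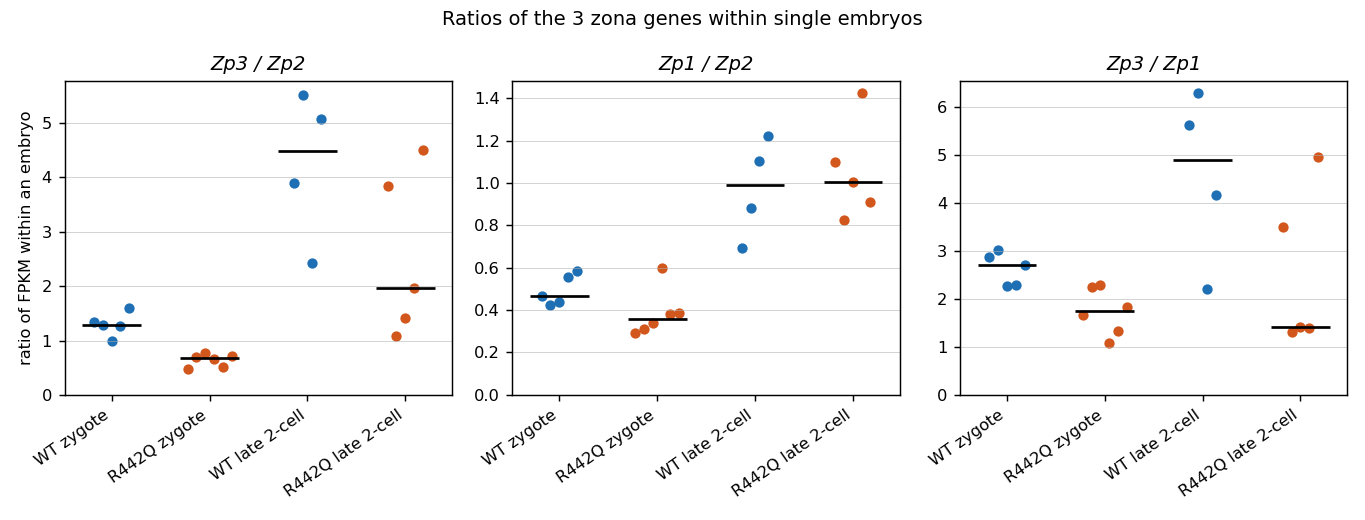
Ratios of FPKM between the 3 zona genes within each zygote and late 2-cell embryo (points), with the group median as a line. Zp1 to Zp2 is higher in every late 2-cell embryo than in any zygote, while Zp2 itself fell between these stages. Zp3 to Zp2 spreads from 1.08 to 4.51 in R442Q late 2-cell embryos.

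The comparison of R442Q with WT late 2-cell embryos is separate from the zygote one that singled out Zp3. The genes were nonetheless chosen with earlier results of these data known. Between these late 2-cell groups 0 of the 6 passed the edgeR test, where 4.18% of 13883 genes did (1.22% higher and 2.95% lower in R442Q). Unadjusted p was under 0.05 for 2 of the 6, Zp2 and Cd9, and for 2910 (21%) of all genes. All 6 log2 differences were above 0 in this fit, where the median of all genes was 0.071. The share of all genes above 0 was not computed, and Zp3 was below 0 in 5 other fits. When single embryos were left out, 142 genes (without WT embryo 2) to 891 genes (without R442Q embryo 3) were called in all, and 0 of the 6 were called in any of these fits.

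For Zp2 the WT embryos had 20.1, 42.5, 60.8 and 32.3 CPM and the R442Q embryos 63.5, 62.2, 62.5, 61.5 and 65.8 CPM. The 5 R442Q embryos lay within a narrow band above all WT embryos, among which the spread was wide. The log2 difference was 0.78 ± 0.35 (edgeR adjusted p = 0.220). R442Q embryos lay wholly above WT for 1 of the 6 genes and for 3.67% of all genes.

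For Cd9 the log2 difference was 0.97 ± 0.33 (edgeR adjusted p = 0.109), and only R442Q embryo 3, at 101 CPM, lay below the highest WT embryo at 114 CPM. Cd9 passed with DESeq2 (adjusted p = 0.041), which called 12% of all genes. It also passed in the joint edgeR fit of zygotes and late 2-cell embryos (adjusted p = 0.031), which called 15.5%. Zp2 passed in that joint fit too (edgeR adjusted p = 0.044). The Cd9 difference was 0.15 ± 0.32 once a trend with transcript length and GC content had been removed from each library.

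Zp1 had 12.1, 32.5, 53.6 and 34.4 CPM in WT and 60.7, 43.8, 42.9, 68.8 and 47.2 CPM in R442Q embryos, with a log2 difference of 0.76 ± 0.42 (edgeR adjusted p = 0.322). Izumo1r differed by 1.20 ± 0.73 (adjusted p = 0.372) and Astl by 0.80 ± 0.78 (adjusted p = 0.606), at the low levels given above. Single embryos moved these values: Izumo1r was 0.58 without R442Q embryo 1, Astl was 0.25 without R442Q embryo 4 and 0.51 without WT embryo 1, and Zp1 was 0.46 without WT embryo 1. Zp3 had 43.0, 129, 80.6 and 89.5 CPM in WT and 135, 37.0, 48.2, 64.0 and 160 CPM in R442Q embryos. Both genotypes spanned nearly the same range, and the difference of 0.16 ± 0.48 (adjusted p = 0.889) changed sign when WT embryo 1 (-0.10), R442Q embryo 1 (-0.10) or R442Q embryo 5 (-0.15) was left out. The lower Zp3 level of R442Q zygotes was thus not detectable in R442Q late 2-cell embryos at this spread. WT embryo 2 was the one with low 2-cell markers. Without it the differences were 0.43 ± 0.52 for Zp3, 0.84 ± 0.41 for Zp2 and 0.98 ± 0.39 for Cd9 (edgeR adjusted p = 0.761, 0.336 and 0.239).

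The 2-cell markers summed to 109 to 1428 FPKM in WT (median 471) and 719 to 2503 FPKM in R442Q late 2-cell embryos (median 1787). These ranges overlap, and 0 of the 7 markers passed the edgeR test between genotypes. Their median log2 difference was 1.23, against 0.071 over all genes. FPKM itself summed to 733250 ± 14091 in WT and 893448 ± 62796 in R442Q embryos (SD), so these sums are shares of unequal totals. Over the 9 embryos Pearson's r between Zp3 CPM and the marker sum, on log scales, was -0.661 (exact permutation p = 0.0476, adjusted over 6 relations 0.286) and Spearman's rho was -0.65 (exact permutation p = 0.0666, adjusted 0.324). Without the 2 embryos farthest from the median sum r was -0.519, and with 4 and 5 embryos no value within a genotype was computed. The relation did not hold after adjustment, nor did that of any other of the 6 genes, for which r lay between -0.108 and 0.466.

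In blastocysts 5 of the 6 genes were at or near 0. Astl and Izumo1r were listed at 0 in all 14 embryos. Zp1 was listed above 0 in 2 embryos, at 0.57 FPKM in WT and 1.30 FPKM in R442Q. Zp2 was above 0 in 4, at 1.10, 2.17 and 0.99 FPKM in WT and 0.47 FPKM in R442Q, and Zp3 in 5, at 0.73, 4.28 and 4.09 FPKM in WT and 0.18 and 0.11 FPKM in R442Q. WT blastocysts 4 and 5 held both the highest Zp3 values and Zp2 above 0. None of these 5 genes met the filter of FPKM at least 1 in at least 7 embryos, so they were not tested between genotypes.

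Cd9, in contrast, was among the abundant transcripts of blastocysts, at 778 to 1480 FPKM in WT (median 1080) and 441.6 to 1738 FPKM in R442Q (median 1059). It ranked from 109 to 438 among all symbols of an embryo. The genotypes overlapped fully, with a log2 difference of -0.20 ± 0.25 (limma on log2(FPKM + 1), adjusted p = 0.908). It was the 1 of the 6 genes tested and was not called; 0.00885% of all genes were. All blastocysts had the inhibitor, so the stage and the treatment cannot be told apart.

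Among blastocysts the Cd9 level went with the summed FPKM of 7 trophectoderm markers, a sum carried mainly by the keratin genes Krt8 and Krt18 (means of 4158 and 5127 FPKM in WT), then Id2 (1103); the next, Gata3, was at 311. A blastocyst is a mixture, in which fewer cells of a type and less RNA per cell cannot be told apart. Over the 14 embryos the log-scale correlation of Cd9 with the summed markers was r = 0.890 (permutation p = 2.0e-05 from 100000 resamples, adjusted over 2 relations 4.0e-05) and rho = 0.877 (permutation p = 1.1e-04, adjusted 2.2e-04), and r was 0.790 without the 2 embryos farthest from the median. Within WT it was 0.924 (exact permutation p = 0.00317, n = 7). Within R442Q it was 0.930 (exact permutation p = 0.00377, n = 7) but 0.494 without the 2 farthest embryos, so that r rests on those, while rho over all 7 was 0.821 (exact permutation p = 0.0341). With inner cell mass markers r was -0.556 (permutation p = 0.0372, adjusted 0.0372) and rho was -0.644 (permutation p = 0.0153). Within WT that r was -0.824 (exact permutation p = 0.0252, n = 7) and within R442Q -0.655 (exact permutation p = 0.101, n = 7). These relations were chosen after the data had been seen, and both sides of each come from the same library.

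**Figure D4:**
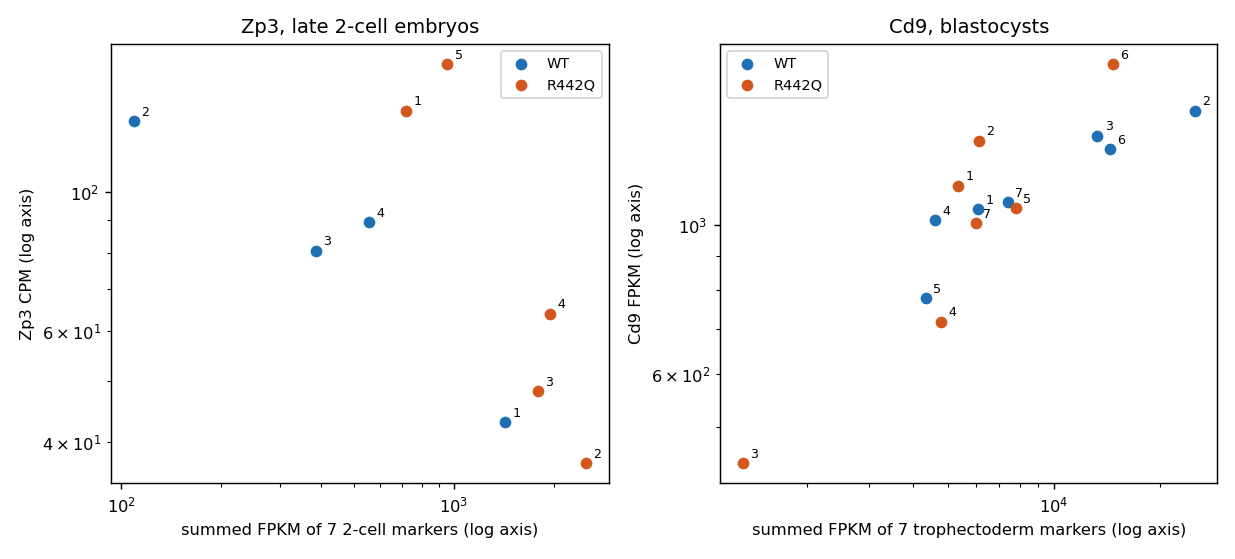
Left, Zp3 CPM against the summed FPKM of 7 2-cell markers in late 2-cell embryos; right, Cd9 FPKM against the summed FPKM of 7 trophectoderm markers in blastocysts; log axes, 1 numbered point per embryo. Cd9 rises with the sum, which Krt8 and Krt18 dominate, over the 14 blastocysts (r = 0.890), with R442Q embryo 3 lowest on both axes.

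Genes of the same processes were counted from 5 lists drawn up by function, 46 genes in all. Between genotypes 0 of the 43 tested in late 2-cell embryos passed with edgeR and 0 of the 25 tested in blastocysts passed with limma, while 9 and 2 had an unadjusted p under 0.05, as did 21% and 7.4% of all genes. DESeq2 called 6 of the 43 in late 2-cell embryos, namely Camk2g, Cacna1h, Slc39a6, Oosp1, Taf4b and Oosp3, and limma on FPKM called 0; DESeq2 called 12% of all genes. The counts with stage stand against 33.3% lower and 41.8% higher over all genes. Of 8 regulators and processors of the zona genes 5 fell, 2 rose and 1 did not pass, with a median log2 change of -1.46 against 0.28 over all genes; Nobox (-3.98 ± 0.17) and Lhx8 (-3.95 ± 0.26), both transcription factors of the oocyte, had the smallest p among them. FIGLA's own gene, Figla, went from a mean of 2.50 to 0.572 CPM (adjusted p = 0.0099), while Taf4b rose by 2.12 ± 0.28 and Sohlh1 from a mean of 0.0775 to 10.4 CPM; these 3 were named after their values had been seen. All 5 factors that the oocyte secretes fell, among them Oosp2 (-3.21 ± 0.19) and Bmp15 (-3.45 ± 0.22), a growth factor that acts on follicle cells.

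The counts of the next 3 lists also stand against 33.3% lower and 41.8% higher over all genes. Of 13 genes for the release of cortical granules 7 fell, 2 rose and 4 did not pass (median -1.23). Nsf, the ATPase that resets the fusion machinery, fell by 3.54 ± 0.24, and Fetub, which encodes fetuin-B, the inhibitor of ovastacin, fell by 4.22 ± 0.38. Astl and the gene of its protein's inhibitor thus both fell. Of 8 genes of the calcium and zinc signals at egg activation 7 fell and 1 did not pass (median -1.21), with Camk2g, the kinase that reads the calcium rises, at -3.02 ± 0.17 and Slc39a6, a zinc importer, at -2.11 ± 0.16. The 12 other proteins of the egg membrane and its microvilli were mixed, with 5 higher, 3 lower and 4 not past the threshold (median 0.25). Folr1, a folate receptor of the family to which JUNO belongs, rose by 8.57 ± 0.40 from a mean of 0.888 to 316 CPM, in the embryos in which Izumo1r fell, and the integrin gene Itga9 fell by 4.08 ± 0.26.

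By Pearson correlation of log2 CPM over the 20 zygotes and late 2-cell embryos, the genes most like Zp3 were Utp4 (r = 0.806), Dnttip2 (0.777), Ndufb3 (0.768), Psmd12 (0.764) and Larp7 (0.754). With each stage's mean removed they were Snrnp40 (0.899), Hspa8 (0.856), Psmc4 (0.846), Gm12918 (0.831) and Mrpl4 (0.829). Among the 6 genes the one most like Zp3 was Zp1, at 0.574 and 0.624 by the same measures. Izumo1r was at 0.117 and 0.564, Zp2 at 0.202 and 0.481, Cd9 at 0.255 and 0.321, and Astl at 0.139 and 0.295. All these values contain the zygote difference by genotype and are a description without a test. Utp4, for example, had 211 ± 49.9 CPM in WT and 79.9 ± 21.5 CPM in R442Q zygotes (SD).

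Count and FPKM together imply an effective transcript length, which was set beside the full lengths of the annotated isoforms. An effective length is shorter than the full transcript, so a value below an annotated length does not show a shorter isoform. The effective length was 1104 to 1178 bases for Zp3 in all 20 embryos with counts. This is close below the 1323 bases of its annotated coding transcript and above the 734 bases of its other transcript. For Zp1 it was 1406 to 1866 bases, between the 481 and 1963 bases of its annotated coding transcripts. For Izumo1r it was 1040 to 1135 bases in zygotes and 784 to 1155 bases in late 2-cell embryos. Its annotated coding transcripts have 566 to 1291 bases.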

How the data were processed

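Single mouse embryos were sequenced after SMART-seq2 and Tn5 fragmentation, per the labels' protocols. The authors deposited estimated counts per gene symbol for zygotes and late 2-cell embryos, and FPKM for all 3 stages. RSEM and the build mm10 are named in the submitters' processing notes; the aligner, the annotation, the use of strand and the versions are not given in the sources used here. Groups came from the sample titles, and no 2 libraries were identical.

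Estimated counts were rounded to whole numbers and tested in R 4.3.3 with edgeR 4.0.16 (quasi-likelihood, filterByExpr with a minimum count of 10, TMM scaling, Benjamini-Hochberg adjustment over all genes, threshold 0.05). Late 2-cell genotypes were fitted alone, and the stage change in 1 model of 4 groups. Blastocyst FPKM was tested with limma 3.58.1 on log2(FPKM + 1), with a variance trend, keeping genes that reached 1 FPKM in 7 or more embryos. DESeq2 1.42.0 and other settings served as alternatives. CPM is the count over the library total, and log2 CPM used a prior count of 2. Correlations used log values and permutation tests in scipy 1.17.1, exact with fewer than 10 embryos. The fits were checked on simulated data.

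Genes named were the 6, Chek1, up to 2 called genes of smallest p per list and comparison, and the 5 most like Zp3 by each measure; all others, among them the marker genes and those called by DESeq2 alone, were named after their values had been seen. The genes, the 5 pathway lists and the 6 marker lists were chosen with earlier results of these data known. Positions and UTR lengths came from GENCODE M21 (GRCm38), matched by symbol, and promoters from RefSeq (GRCm38.p6), which matched 4 of the 6.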

Additional observations from a re-analysis of the deposited data

Results flagged for a closer look

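Within 4 of the 32 groups of values examined, the highest or lowest embryo stood apart from the rest by Dixon's criterion. Chance alone does this in about 1 in 20 groups of untied values; 3 of the 4 cases are a single value above 0 among embryos at 0, for which that rate does not hold. Zp1 had 51.0 CPM in WT zygote 3, below the other 4 WT zygotes, of which the nearest had 70.2 CPM. Zp1 was listed at 1.3 FPKM in R442Q blastocyst 5 and at 0.57 FPKM in WT blastocyst 1, with the other 6 embryos of each group at 0. Zp2 was listed at 0.47 FPKM in R442Q blastocyst 2, with the other 6 at 0.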

How the results depend on the processing

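In late 2-cell embryos edgeR called 580 genes between genotypes (170 higher, 410 lower in R442Q). Other settings gave 889 without a filter on low counts, 144 (67 higher, 77 lower) with the length and GC trend removed, 1664 (736 higher, 928 lower) with DESeq2 and 2507 in the joint fit of 4 groups; limma on log2(FPKM + 1) gave 264 higher and 388 lower. Of the 6 genes DESeq2 called 1 and the joint fit 2, and each fit without a single embryo called 0. That step moved the total between 142 and 891, with 351, 142, 283 and 209 without WT embryos 1 to 4, and 372 and 891 without R442Q embryos 2 and 3. Zp3, never called there, was -0.024 with limma on FPKM and ranged from -0.15 to 0.43 without single embryos.

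From zygote to late 2-cell, 4 to 5 of the 6 genes were called in every fit, though not the same ones. WT embryos only called Zp1 (-1.22, edgeR adjusted p = 0.00676) and not Cd9. R442Q embryos only called Zp3 (0.97, edgeR adjusted p = 0.0348) and Cd9. The Zp1 and Zp3 values within a genotype share the zygote contrast that singled out Zp3, so nothing is read from them. Over all genes 12158 of 16199 were called, 9610 of 13727 in WT only, 8695 of 13501 in R442Q only and 14820 of 31286 without a filter. Zp3 was -0.61 in WT embryos only, and between -0.036 (without WT late 2-cell embryo 2) and 0.28 without single embryos. Zp1 was 0.33 in R442Q embryos only, and was also called in 6 fits without 1 embryo (adjusted p 0.012 at the least).

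In blastocysts 1 gene was called in all, 0 without the filter, 5 with TMM scaling of FPKM, and 0 to 30 without single embryos (30 without WT embryo 7, 2 without R442Q embryo 1); Cd9 stayed between -0.33 and -0.0059, never called. The causes of these shifts were not tested.

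Embryos of the 2 genotypes with the same number in their titles did not deviate together: correlations were over 0.1 in 0 of 5 zygote, 1 of 4 late 2-cell and 3 of 7 blastocyst pairs, and 1, 1 and 2 pairs correlated best with their own number. The submitters' library names number the embryos of 5 zygote pairs and 1 late 2-cell pair differently, and pairing by those names was not tried. With the replicate number as a block, 58 genes were called in late 2-cell embryos (8 higher, 50 lower) and 0 in blastocysts; Zp3 was -0.33 in late 2-cell embryos, and 4 of the 6 genes were called with stage, as were 11709 of all 16199. In late 2-cell embryos 3 counts are worth 0.34 to 0.52 CPM, below every value of the 6 genes; for blastocysts no counts were used, so no such limit is given.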
